A study of Cricetulus griseus with 24 samples.

Results

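The genes described here are the cadherins, the protocadherins and the catenins of LR73 phagocytes. Names beginning with Cdh and a number, Cdhr, Pcdh, Fat1 to Fat4, Dchs, Celsr or Ctnn were taken from both count tables, and a gene was kept when its mean reached 0.5 CPM (counts per 1000000 fragments) in at least 1 of the 6 groups of libraries. Of 26776 gene names, 67 matched and 24 were kept. They were 6 cadherins (Cdh1, Cdh2, Cdh9, Cdh13, Cdh17 and Cdh24), 6 protocadherins (Pcdh7, Pcdh12, Pcdh18, Pcdh19, Pcdhgc3 and Pcdhgc5), 5 giant or planar polarity cadherins (Fat1, Fat4, Dchs1, Celsr2 and Celsr3), 4 catenins (Ctnnb1, Ctnnd1, Ctnna1 and Ctnna2) and 3 catenin-related genes (Ctnnal1, Ctnnbl1 and Ctnnbip1). The other 43 matching names stayed under the minimum, and 11 of them had no fragment in any library. Just above the minimum were Cdh17, with a highest group mean of 0.563 CPM, Cdh13 at 0.817 CPM and Celsr2 at 0.821 CPM, and just below it were Pcdhgc4 at 0.483 CPM and Celsr1 at 0.479 CPM. Pcdh12 and Cdh17 passed the minimum only in wildtype libraries of the second experiment.

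RNA was sequenced from 24 libraries of LR73 cells, a fibroblast-like derivative of Chinese hamster ovary cells that takes up dead cells, with 4 libraries per group. In the first experiment the cells received apoptotic Jurkat cells (a human T lymphocyte line) with cytochalasin D, either agent alone, or neither (control). Cytochalasin D caps actin filaments, which blocks engulfment. In the second experiment Slc12a2-deficient or wildtype LR73 cells spent 2 h with apoptotic Jurkat cells, and those bearing the dye CypHer5E, which marks engulfed targets, were sorted. All apoptotic cells had been irradiated with ultraviolet C at 1500 mJ and cultured for 4 h. The product of Slc12a2 is NKCC1, which carries sodium, potassium and chloride into cells. The sources used here do not give how it was removed, whether the deficient cells descend from a single clone, or how long cells and corpses were together in experiment 1.

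Classical cadherins are adhesion receptors that bind the same cadherin on a neighbouring cell in the presence of calcium. Inside the cell p120-catenin (Ctnnd1) keeps them at the surface, and beta-catenin (Ctnnb1) and alpha-catenin (Ctnna1, and Ctnna2 in neurons) tie them to actin filaments, while beta-catenin also carries Wnt signals to the nucleus. Protocadherins share the extracellular repeats but mostly lack the catenin-binding tail, and the Fat, Dachsous and Celsr proteins orient cells within a tissue. Fibroblasts typically carry N-cadherin (Cdh2), and epithelia E-cadherin (Cdh1).

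Libraries of the first experiment held 8275769 to 18917152 counted fragments, and those of the second 23059998 to 28838553. Slc12a2 stood at 25.3, 22.4, 24.7 and 26.1 CPM in deficient libraries, against 93.4, 91.2, 99.5 and 102.9 CPM in wildtype libraries. Every deficient library lay below every wildtype library, and the deficient mean was 25.5% of the wildtype mean. Of 13 fibroblast markers, 7 or 8 reached 1 CPM in every group, with Vim at group means from 2961 to 5415 CPM, whereas the defining markers Col1a1 and Thy1 stayed at or below 0.124 CPM. In the first experiment transcripts of T lymphocytes were present with corpses: the T cell kinase Lck stood at 3.07 ± 0.824 CPM with corpses and cytochalasin D, 3.20 ± 0.276 CPM with corpses, 0 with cytochalasin D and 0.0259 ± 0.0518 CPM in control (SD, n = 4 each). In the sorted cells of the second experiment, which had also met corpses, Lck stood at 0.0495 CPM in deficient and 0.0585 CPM in wildtype libraries. Libraries 4 of control, 1 of cytochalasin D and 4 of the combination stood apart on the third principal component of the first experiment (10.4% of the variance), and results that rest on them are named below.

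Catenins dominated the family per length of transcript. In control libraries Ctnnb1 had 191.7 CPM per kb of exon, which was 41% of the summed level of the 24 members, followed by Ctnna1 with 58.7, Ctnnbl1 with 57.3 and Ctnnd1 with 44.8 CPM per kb. Ctnnbl1 encodes a beta-catenin-like nuclear protein of the splicing machinery. Among the transmembrane members, Fat1, a giant cadherin, was the most abundant at 27.8 CPM per kb, followed by Cdh2 at 15.8, Pcdhgc3 (a C-type isoform of the gamma protocadherin cluster) at 15.0, Pcdh18 at 11.6, Pcdh7 at 5.003 and Pcdhgc5 at 4.93 CPM per kb. E-cadherin Cdh1 reached 1.71 CPM per kb in control libraries, below Cdh2, and Ctnnbip1, an inhibitor of beta-catenin binding to TCF factors, reached 16.3 CPM per kb. Below 1 CPM per kb in control libraries were Ctnna2, the type II cadherin Cdh9, the lipid-anchored Cdh13, Pcdh19, Fat4 and its partner Dchs1, Cdh17, Pcdh12, Celsr2 and Celsr3.

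In wildtype libraries of the second experiment Ctnnb1 again stood first, at 205.5 CPM per kb, but the next 4 genes came in the opposite order, with Fat1 at 55.5, Ctnnd1 at 54.8, Ctnnbl1 at 51.7 and Ctnna1 at 47.3 CPM per kb. Pcdh12 held 3.07 CPM per kb there and was the thirteenth of 24. The tables of both experiments were normalised separately, and levels were not tested across them.

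**Figure D1:**
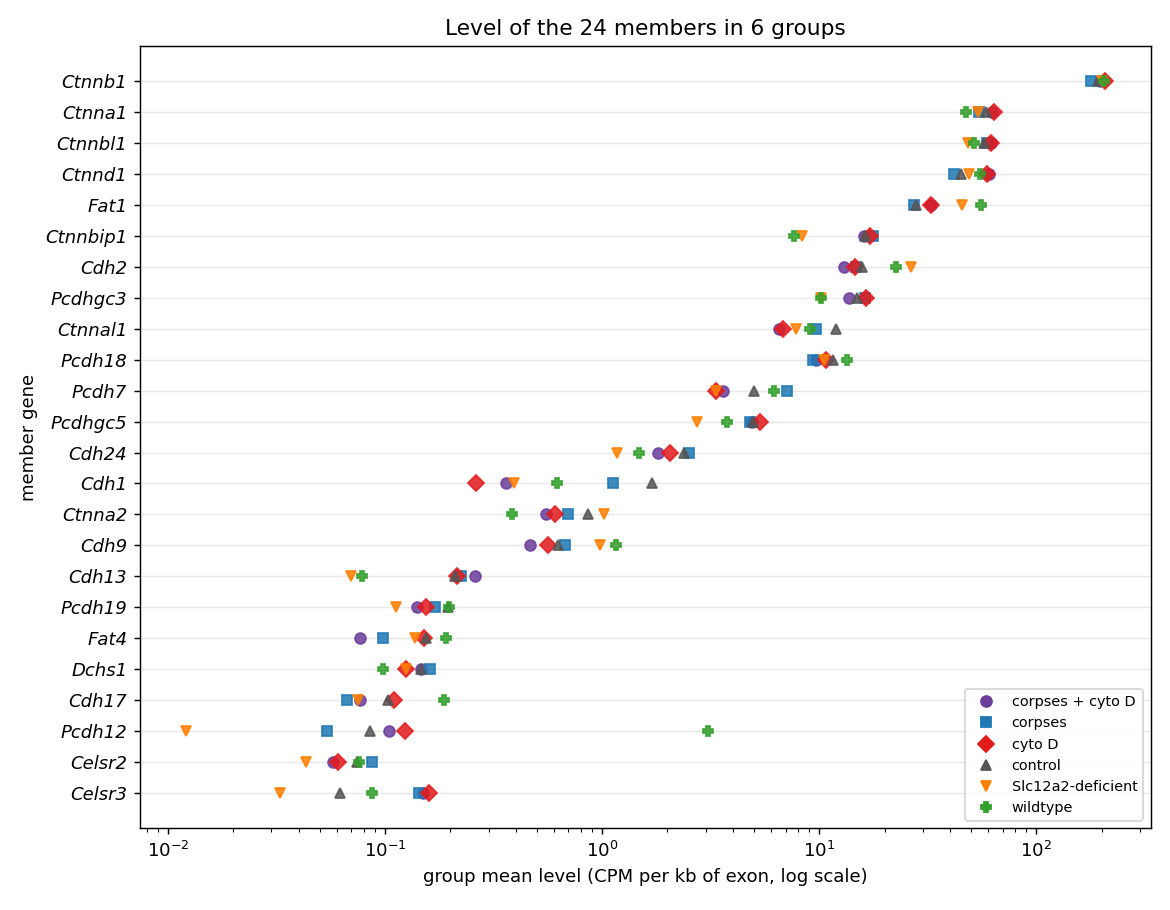
Group mean level of the 24 members in CPM per kb of exon (log axis), 1 symbol per group of 4 libraries. Ctnnb1 leads in every group, and Pcdh12 spans from 0.0121 in Slc12a2-deficient to 3.07 CPM per kb in wildtype libraries.

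Cytochalasin D without corpses asks how the blocked actin cytoskeleton alone moves these genes. E-cadherin fell most, and with it fell Ctnnal1, which encodes alpha-catulin, a relative of alpha-catenin, and Pcdh7, whereas p120-catenin, beta-catenin, alpha-catenin, Fat1 and Celsr3 rose. Of 22 members tested, 8 changed at an edgeR adjusted p under 0.05, 5 higher and 3 lower, where 26.3% of all 13106 genes tested were called (13.5% higher and 12.8% lower). Members had a median log2 fold change of -0.0693, against 0.00884 over all genes.

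Cdh1 stood at 0.879, 1.47, 0.848 and 0.996 CPM with cytochalasin D, against 5.65, 6.06, 7.51 and 7.92 CPM in control. Every cytochalasin D library lay below every control library. It was 6.39-fold lower (log2 -2.68, SE 0.24, adjusted p = 5.96e-09 by edgeR). The same groups differed in the summed level of 13 epithelial markers, which ran from 1.03 to 1.70 CPM with cytochalasin D and from 2.64 to 4.81 CPM in control. In both of these groups 6 of the 13 were at 0, Krt18 among them, and Krt5 was the 1 that passed the count filter (log2 -1.95, adjusted p = 0.000996 by edgeR). Krt5 stood at 0.603 CPM with cytochalasin D and 2.42 CPM in control, where it held much of the sum and alone reached 1 CPM. The part of the epithelial markers in the Cdh1 result was not tested, and in bulk RNA fewer cells of a type and less RNA per cell cannot be told apart. Fibroblast markers summed to 4230 to 4880 CPM with cytochalasin D and 5310 to 5840 CPM in control, and endothelial markers, mostly Flt1, to 15.9 CPM or more with cytochalasin D and 13.1 CPM or less in control. The part of these markers in the member results was not tested either.

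Of the catenins, Ctnnd1, Ctnnb1 and Ctnna1 moved the other way from Cdh1. Ctnnd1 had 295.6, 296.2, 285.0 and 289.9 CPM with cytochalasin D, against 214.6, 223.2, 216.9 and 224.5 CPM in control, a gap far wider than the spread within either group (log2 0.41, SE 0.04, adjusted p = 1.09e-08 by edgeR). Ctnnb1 stood at 694.6, 722.0, 710.7 and 743.7 CPM with cytochalasin D, against 656.8, 674.5, 661.7 and 675.1 CPM in control. These groups did not overlap either, though the rise was small (log2 0.11, SE 0.03, adjusted p = 0.014 by edgeR). Ctnna1 rose to 225.1 ± 11.2 CPM, against 206.6 ± 7.52 CPM in control, with overlapping groups (log2 0.13, SE 0.04, adjusted p = 0.0366 by edgeR). That call was lost in 8 of 16 alternative fits, among them those without control library 1, 2 or 3 or cytochalasin D library 2, 3 or 4 (adjusted p up to 0.13 by edgeR over all alternatives). The neuronal form Ctnna2 stood at 1.56 ± 0.638 CPM with cytochalasin D and 2.22 ± 0.273 CPM in control and did not pass the test (log2 -0.50, SE 0.31, adjusted p = 0.263 by edgeR).

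Ctnnal1 had 20.1, 19.8, 22.8 and 25.6 CPM with cytochalasin D, against 36.8, 36.6, 34.9 and 47.2 CPM in control. The groups were apart (log2 -0.81, SE 0.10, adjusted p = 1.01e-06 by edgeR), and the call held in all 16 alternative fits, including the one without control library 4, the highest. Pcdh7, a delta protocadherin, stood at 38.3, 32.2, 32.7 and 31.2 CPM with the drug, against 44.8, 51.4, 49.9 and 55.3 CPM in control, again with every treated library below every control library (log2 -0.58, SE 0.08, adjusted p = 3.83e-06 by edgeR). Celsr3, which acts in planar polarity and axon guidance, stood at 2.56, 1.54, 1.41 and 2.24 CPM with the drug, against 0.778, 0.667, 0.948 and 0.630 CPM in control. It was 2.54-fold higher with no overlap (log2 1.34, SE 0.32, adjusted p = 0.00313 by edgeR), from 109 fragments with cytochalasin D and 46 in control. Of the exon bases of Celsr3, 15.2% overlap Slc26a6 and the counting used no strand. Slc26a6 itself did not pass the test in any comparison (lowest adjusted p = 0.078 by edgeR, in the second experiment). Fat1 rose to 499 ± 52.4 CPM, against 424.5 ± 64.6 CPM in control (log2 0.24, SE 0.08, adjusted p = 0.0299 by edgeR), with overlapping groups. That call was lost in 6 of 16 alternatives (adjusted p up to 0.135 by edgeR or DESeq2). Among them were those without control library 1 or 3 or cytochalasin D library 3 or 4. Cdh2 stood at 36.8 ± 1.66 CPM with cytochalasin D and 39.7 ± 1.80 CPM in control (log2 -0.10, SE 0.07, adjusted p = 0.272 by edgeR).

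**Figure D2:**
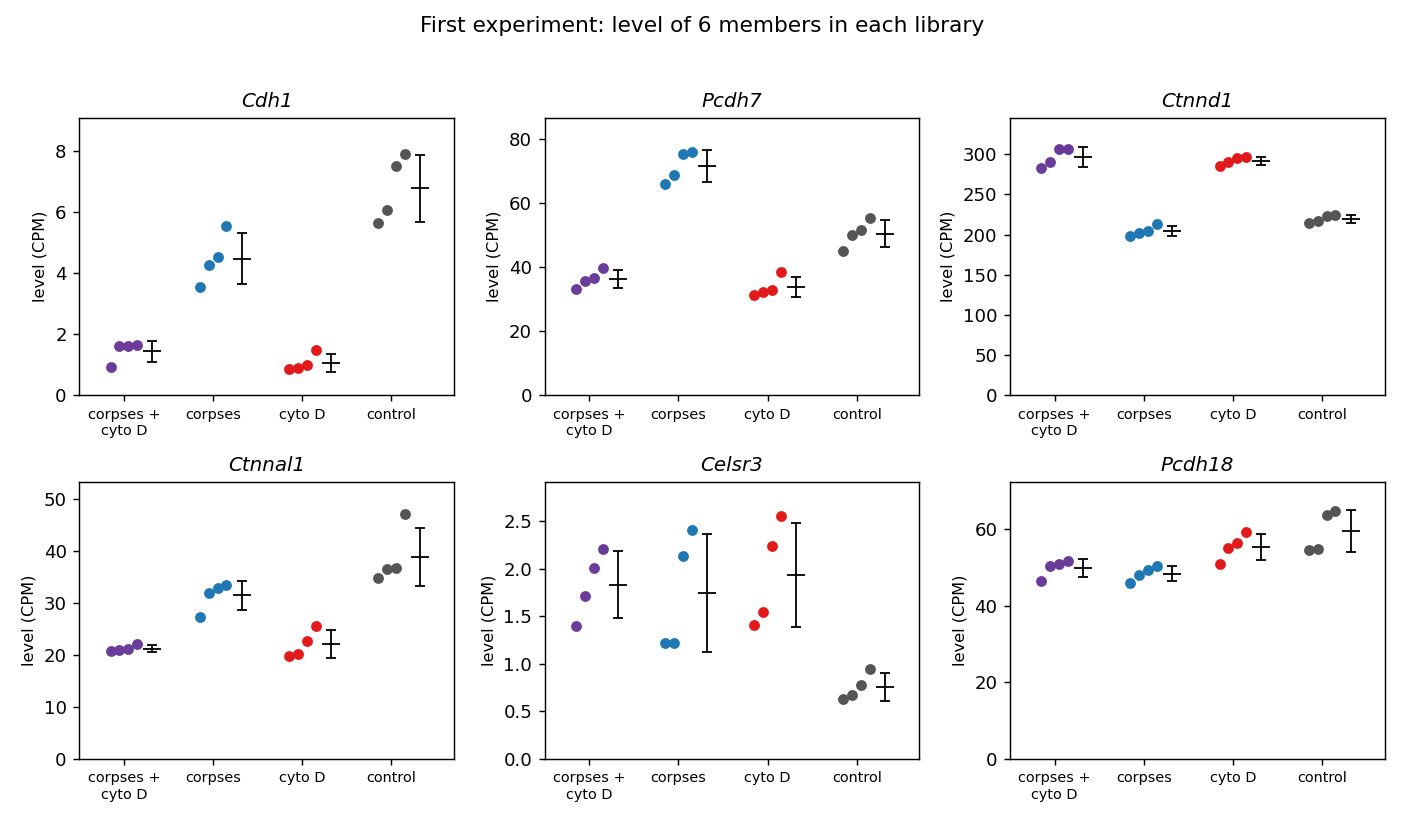
Level in CPM of 6 members in each of the 16 libraries of the first experiment (points, drawn from low to high within a group), with the group mean and SD beside them (line and whiskers, n = 4). Cdh1 lies between 0.848 and 1.63 CPM in the 8 cytochalasin D libraries and between 3.54 and 7.92 CPM in the 8 without it, while Ctnnd1 is higher in all 8 libraries with cytochalasin D.

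The same drug in the presence of corpses, set against corpses alone, asks how cytochalasin D moves these genes where corpses are present. Direct effects of the drug and effects of blocked uptake cannot be told apart in it. Here too E-cadherin, Ctnnal1 and Pcdh7 fell, Ctnnd1, Ctnnb1, Ctnna1 and Fat1 rose, and Cdh2, Cdh24 and Pcdhgc3 were called lower in addition. Of 22 members 10 were called, 4 higher and 6 lower, where 32.5% of all genes were called (16.4% higher and 16.1% lower). The median log2 fold change was -0.157 over the members and -0.00204 over all genes. This comparison shares no library with the one before, but the comparisons that follow share libraries with both.

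Cdh1 had 0.922, 1.59, 1.61 and 1.63 CPM with corpses and cytochalasin D, against 4.27, 5.56, 3.54 and 4.52 CPM with corpses alone. No library of one group reached the other, and the level was 3.18-fold lower (log2 -1.67, SE 0.24, adjusted p = 7.49e-06 by edgeR). Epithelial markers summed to between 1.41 and 2.46 CPM with both agents and to between 2.26 and 3.85 CPM with corpses. Much of the sum with corpses was Krt5, at 0.690 CPM with both agents and 2.00 CPM with corpses. Krt5 fell here as well (log2 -1.49, adjusted p = 0.00829 by edgeR), a co-movement whose part was not tested. Ctnnd1 stood at 290.1, 283.4, 306.7 and 307.2 CPM with both agents, against 198.1, 201.6, 204.0 and 213.0 CPM with corpses alone. All treated libraries were the higher ones (log2 0.54, SE 0.04, adjusted p = 8.43e-11 by edgeR).

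Ctnnb1 rose to 687.6 ± 19.1 CPM with both agents, against 621.5 ± 9.51 CPM with corpses (log2 0.15, SE 0.03, adjusted p = 0.000944 by edgeR), and Ctnna1 rose to 220.2 ± 7.80 CPM, against 192.1 ± 7.61 CPM with corpses (log2 0.20, SE 0.04, adjusted p = 0.00126 by edgeR). Both pairs of groups were apart. Pcdh7 had 36.5, 39.7, 35.4 and 33.1 CPM with both agents, against 68.7, 75.8, 75.3 and 65.8 CPM with corpses. Its level was 1.98-fold lower, with the groups far apart (log2 -0.99, SE 0.08, adjusted p = 6.09e-10 by edgeR). Ctnnal1 fell to 21.2 ± 0.661 CPM with both agents, against 31.5 ± 2.82 CPM with corpses (log2 -0.57, SE 0.10, adjusted p = 0.000119 by edgeR).

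The smaller calls of this comparison depended more on single libraries and settings. Fat1 stood at 500.2 ± 34.7 CPM with both agents and 415.8 ± 8.77 CPM with corpses (log2 0.26, SE 0.08, adjusted p = 0.0126 by edgeR). Removing each library's trend with gene length left Fat1, one of the longest transcripts of the family, with an edgeR adjusted p of 0.144, and the call was also lost without library 2 of the combination. Pcdhgc3 fell to 35.2 ± 1.66 CPM with both agents, against 41.7 ± 2.12 CPM with corpses (log2 -0.25, SE 0.08, adjusted p = 0.016 by edgeR), a call lost without corpse library 3 (adjusted p = 0.0595 by edgeR). The gamma protocadherin isoforms share their last exons. In the gene models used, Pcdhgc3 overlaps another gene in 1.53% of its exon bases and Pcdhgc5 in none. Which entry, if any, collects reads of the shared exons was not tested. Cdh2 fell to 32.6 ± 1.44 CPM with both agents, against 37.1 ± 2.61 CPM with corpses, in overlapping groups (log2 -0.19, SE 0.07, adjusted p = 0.0372 by edgeR). It lost its call in 7 of 16 alternatives, without corpse library 1, 2 or 4 or combination library 1, 2 or 3 among them (adjusted p up to 0.103 by edgeR). Cdh24, a type II cadherin, fell to 3.86 ± 0.563 CPM with both agents, against 5.34 ± 0.383 CPM with corpses (log2 -0.45, SE 0.17, adjusted p = 0.0499 by edgeR). Its call was lost in 12 of 16 alternatives (adjusted p up to 0.124 by edgeR or DESeq2). Among them were each that left out a corpse library or combination library 2, 3 or 4. The fit without the 3 libraries that stood apart was another.

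Corpses without cytochalasin D, set against phagocytes alone, ask how contact and uptake together move the family. Pcdh7 and Celsr3 rose, and Pcdh18, another delta protocadherin, fell. Smaller decreases of Cdh1, Ctnnal1 and Ctnnb1 were called as well. The 6 calls of 22 members, 2 higher and 4 lower, stood beside 13.7% of all genes called (6.97% higher and 6.68% lower), and the median log2 fold change was -0.0399 over the members and 0.00298 over all genes. The share of all genes called was 8.33% without corpse library 3. Without the 3 libraries that stood apart, Pcdh7, Celsr3 and Pcdh18 were the 3 members called.

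Pcdh7 had 68.7, 75.8, 75.3 and 65.8 CPM with corpses, against the control values of 44.8, 51.4, 49.9 and 55.3 CPM given above. It was higher in 4 of 4 libraries (log2 0.51, SE 0.07, adjusted p = 6.87e-05 by edgeR), and the call held in all 16 alternative fits. Pcdh18 stood at 45.8, 48.1, 49.3 and 50.5 CPM with corpses, against 63.7, 54.7, 55.0 and 64.7 CPM in control. It was lower without overlap (log2 -0.29, SE 0.07, adjusted p = 0.00432 by edgeR) and this call held in all 16 alternatives too. Celsr3 stood at 2.41, 2.14, 1.22 and 1.22 CPM with corpses and at 0.756 ± 0.143 CPM in control (log2 1.17, SE 0.33, adjusted p = 0.0191 by edgeR). Its corpse libraries fell into a higher and a lower pair, and the call was lost without library 1 or library 2 (highest adjusted p = 0.0665 by edgeR).

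Cdh1 stood at 4.48 ± 0.836 CPM with corpses and 6.785 ± 1.099 CPM in control (log2 -0.59, SE 0.19, adjusted p = 0.0449 by edgeR), Ctnnal1 at 31.5 ± 2.82 CPM with corpses and 38.8 ± 5.61 CPM in control (log2 -0.30, SE 0.09, adjusted p = 0.0376 by edgeR), and Ctnnb1 at 621.5 ± 9.51 CPM with corpses and 667.0 ± 9.19 CPM in control (log2 -0.10, SE 0.03, adjusted p = 0.0329 by edgeR). Each of these 3 sets of groups was apart, yet each call was lost in 7 to 9 of 16 alternatives. Among them were removal of the length trend and the fits without control library 4 and without corpse library 3 or 4. The adjusted p reached 0.152 for Cdh1 (by edgeR or DESeq2), 0.16 for Ctnnal1 and 0.225 for Ctnnb1 (both by edgeR). Fold changes fell with gene length in this comparison (Spearman correlation across genes -0.256 over 13106 genes, which are not independent replicates), and members were longer, with a median of 3500 bases against 2220. Ctnnd1 (log2 -0.11, SE 0.04, adjusted p = 0.0649 by edgeR), Ctnna1 (log2 -0.10, SE 0.04, adjusted p = 0.121 by edgeR), Cdh2 (log2 -0.10, SE 0.07, adjusted p = 0.361 by edgeR) and Fat1 (log2 -0.03, SE 0.08, adjusted p = 0.857 by edgeR) did not pass the test. T lymphocyte markers summed to between 42.7 and 46.4 CPM with corpses and to between 34.8 and 37.2 CPM in control. Of 19 in the tables, 5 were at 0 with corpses and 12 in control. Most of both sums was Tcf7, at 23.0 CPM with corpses and 23.7 CPM in control, and Lat, at 11.1 and 11.0 CPM. Neither Tcf7 nor Lat passed the test, and the markers called higher with corpses were Lck, Zap70 and Lef1. The part of Jurkat transcripts in the levels of these members was not tested.

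Corpses that could not be taken up gave 1 call in the family. With cytochalasin D present throughout, 1 of 22 members was lower, where 8.61% of all genes were called (4.82% higher and 3.79% lower), and 4 had an unadjusted p under 0.05. The median log2 fold change was -0.0630 over the members and -0.00707 over all genes. The call was Pcdhgc3, at 33.5, 37.4, 34.5 and 35.2 CPM with corpses and cytochalasin D, against 39.7, 48.4, 43.7 and 36.0 CPM with cytochalasin D alone. The groups overlapped (log2 -0.26, SE 0.08, adjusted p = 0.0416 by edgeR) and 8 of 16 alternatives lost the call, among them those without cytochalasin D library 2 or 3 or combination library 1, 3 or 4 and the one without the 3 libraries that stood apart (adjusted p up to 0.184 by edgeR). The share of all genes called was 5.70% without combination library 3 or 4. Fat4, the giant cadherin that binds Dchs1, had 0.977, 1.35, 1.19 and 1.72 CPM with both agents, against 3.28, 2.20, 2.12 and 2.74 CPM with cytochalasin D alone. Its groups were apart, but it did not pass the test (log2 -1.01, SE 0.32, adjusted p = 0.0557 by edgeR). Pcdh7 stood at 36.2 ± 2.75 CPM with both agents and 33.6 ± 3.17 CPM with cytochalasin D (log2 0.11, SE 0.08, adjusted p = 0.481 by edgeR). Cdh2 (log2 -0.18, adjusted p = 0.11 by edgeR), Ctnnb1 (log2 -0.06, adjusted p = 0.247 by edgeR), Ctnna1 (log2 -0.03, adjusted p = 0.734 by edgeR), Ctnnd1 (log2 0.03, adjusted p = 0.739 by edgeR) and Fat1 (log2 0.00, adjusted p = 0.997 by edgeR) did not pass either.

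Whether the effect of corpses differed with and without cytochalasin D was tested by an interaction term. It was called for 2 of 22 members, both lower, where 4.56% of all genes were called (3.03% higher and 1.53% lower), and 5 members had an unadjusted p under 0.05. That share of all genes ran from 1.89% without corpse library 3 to 12.4% without cytochalasin D library 4, was 0.907% without the 3 libraries that stood apart, and moved by more than 1.5 times without control library 1, any cytochalasin D library, corpse library 3 or 4, or combination library 3 or 4. For Pcdh7 the effect of corpses was smaller by 0.40 on the log2 scale under cytochalasin D (log2 difference -0.40, SE 0.11, adjusted p = 0.0365 by edgeR). For Pcdhgc3 the difference was -0.38 (SE 0.11, adjusted p = 0.0479 by edgeR). The first was lost in 10 and the second in 17 of 23 alternatives, both of them without the 3 libraries that stood apart (edgeR adjusted p up to 0.129 and 0.117 over all alternatives). Single libraries whose removal ended the Pcdh7 call were control 1 and 3, cytochalasin D 1 to 3, corpses 2 and 3, and combination 3 and 4, and for Pcdhgc3 they were all but cytochalasin D library 4. Larger differences that did not pass were 1.01 for Cdh1 (SE 0.35, adjusted p = 0.0922 by edgeR) and -1.26 for Celsr3 (SE 0.44, adjusted p = 0.0987 by edgeR). The differences for Cdh2, Ctnnb1, Ctnna1, Ctnnd1 and Fat1 ran from -0.08 to 0.13 and did not pass (lowest adjusted p = 0.149 by edgeR, for Ctnnd1).

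**Figure D3:**
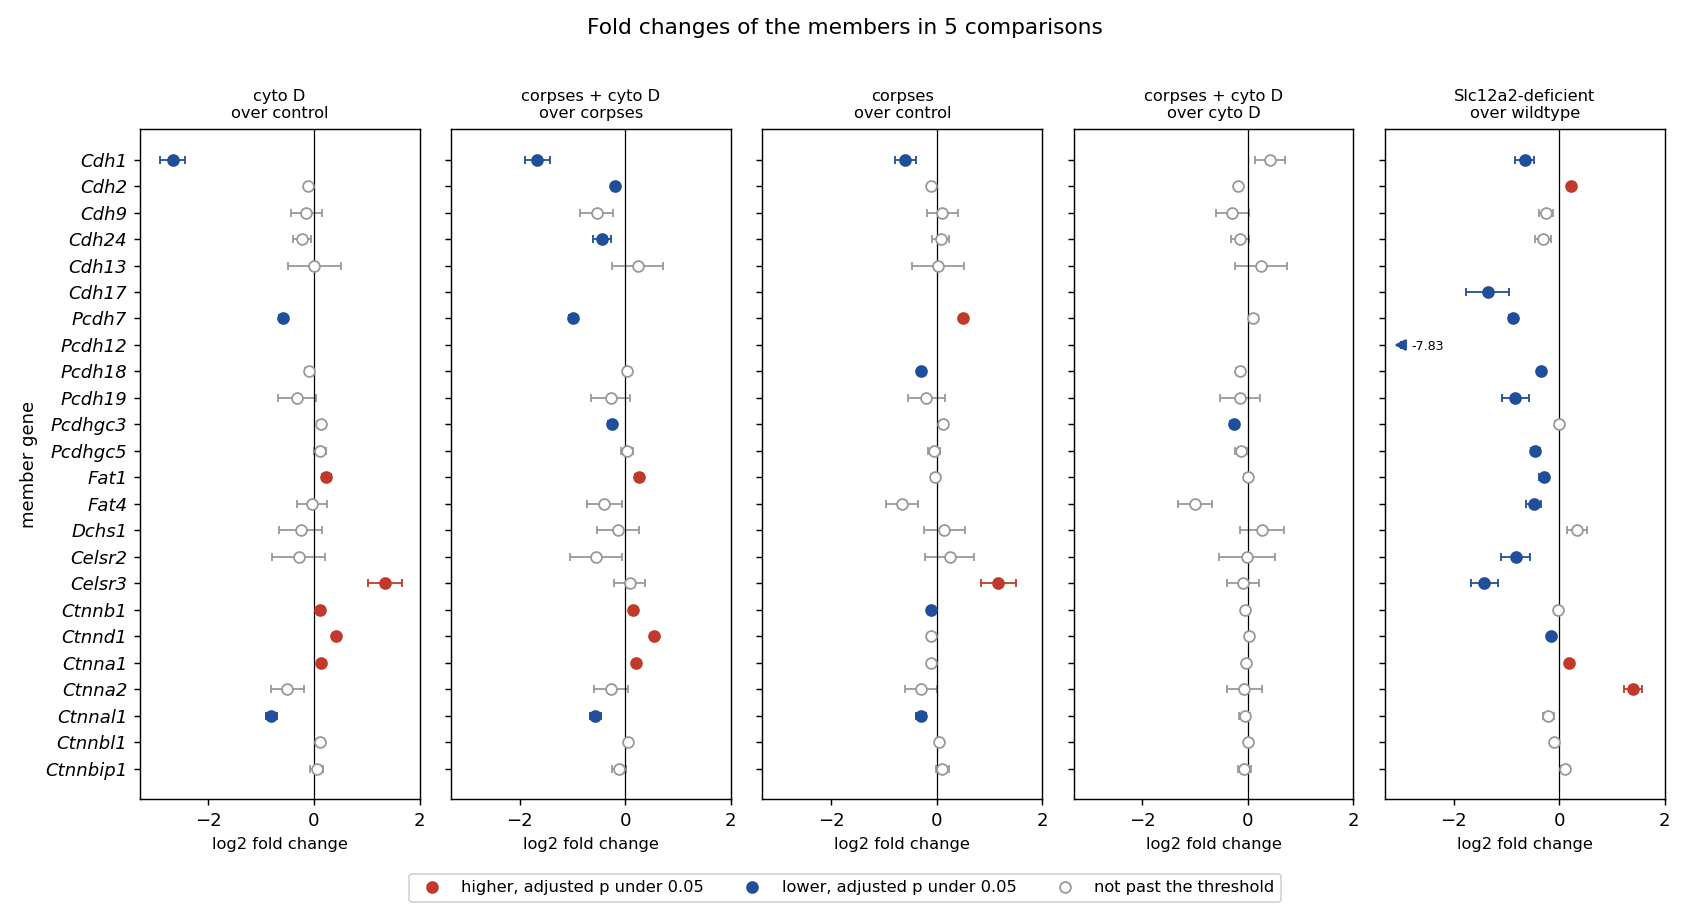
Log2 fold change of each member (points, whiskers SE) in 5 comparisons, filled where the edgeR adjusted p was under 0.05. Both cytochalasin D panels show Cdh1 low and Ctnnd1 high, the panel of corpses over cytochalasin D holds 1 filled point, Pcdhgc3, and Pcdh12 at -7.83 lies beyond the axis in the genotype panel (arrow). Cdh17 and Pcdh12 were not tested in the first experiment, nor Cdh13 in the second.

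Genes that work with cadherins were counted from lists. Their counts are given beside the share of all genes called in the same comparison, and nothing particular to a list is read from them. Of 20 junction partners tested, 4 rose and 4 fell with cytochalasin D, where 13.5% of all genes rose and 12.8% fell. Vcl, vinculin, which binds alpha-catenin under tension, rose to 68.6 ± 5.66 CPM, against 23.5 ± 1.72 CPM in control (log2 1.55, adjusted p = 5.68e-13 by edgeR). Ajuba, a LIM protein of junctions, fell to 161.4 ± 5.56 CPM, against 336.4 ± 11.0 CPM in control (log2 -1.06, adjusted p = 7.32e-15 by edgeR), and the desmosomal plaque gene Pkp2 fell to 1.83 ± 0.251 CPM, against 4.74 ± 0.164 CPM in control (log2 -1.37, adjusted p = 2.52e-05 by edgeR). With corpses, where 6.97% of all genes rose and 6.68% fell, 1 of the 20 rose and 5 fell, Ajuba among them (log2 -0.34, adjusted p = 9.7e-06 by edgeR).

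Of 9 repressors of cadherin genes, 4 rose and 2 fell with cytochalasin D, where 26.3% of all genes were called. Snai2, or Slug, a repressor of E-cadherin, rose to 7.67 ± 0.615 CPM, against 4.20 ± 0.486 CPM in control (log2 0.87, adjusted p = 0.000106 by edgeR), beside Zeb2 (log2 0.17), Twist1 (log2 0.28) and Klf8 (log2 0.35), while Prrx1 (log2 -0.16) and Tcf3 (log2 -0.32) fell. With corpses Zeb2 fell to 67.9 ± 4.07 CPM, against 88.8 ± 5.05 CPM in control (log2 -0.39, adjusted p = 4.28e-05 by edgeR), and Klf8 fell while Snai1 rose. Of 13 genes for cadherin cleavage and maturation, 6 rose with cytochalasin D, led by the membrane metalloprotease Mmp14 (log2 0.61, adjusted p = 4.99e-09 by edgeR) and the presenilin Psen2 (log2 0.83, adjusted p = 4.6e-07 by edgeR). With corpses present 7 of the 13 rose and 1 fell under cytochalasin D, where 16.4% of all genes rose and 16.1% fell, with Adam10, a sheddase of E- and N-cadherin, among those that rose (log2 0.43, adjusted p = 1.13e-05 by edgeR).

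Of 13 genes of the complex that degrades beta-catenin, 2 rose and 1 fell with cytochalasin D, where 26.3% of all genes were called, and 1 fell with corpses, where 13.7% were called. Of 9 targets of Wnt and beta-catenin, 3 fell with cytochalasin D, including the cyclin Ccnd1 at 59.3 ± 6.93 CPM, against 86.1 ± 7.95 CPM in control (log2 -0.54, adjusted p = 5.24e-05 by edgeR), and 5 fell when cytochalasin D was added to corpses, where 12.8% and 16.1% of all genes fell. With corpses 1 of the 9 was called, Lef1, which is also on the T lymphocyte list and had no fragment in control. Of 13 planar polarity genes 1 rose with cytochalasin D, Dvl2, and 3 fell, Ror1, Fjx1 and Wnt5b, beside the same 26.3% of all genes.

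Slc12a2-deficient phagocytes that had engulfed corpses were set against wildtype ones. Pcdh12 was close to absent from the deficient libraries, all but 1 of the other protocadherins fell, and Ctnna2, Cdh2 and Ctnna1 rose. Of 23 members tested, 15 were called, 3 higher and 12 lower, where 42.5% of all 13050 genes were called (21.1% higher and 21.3% lower). The median log2 fold change was -0.294 over the members and -0.00178 over all genes. Since Pcdh12 and Cdh17 entered the family through their wildtype level alone, their direction was set by the minimum on CPM. Both are among the 12 lower calls and in the median of the members.

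Pcdh12, a protocadherin known in mice from endothelium and placental trophoblast, was counted 2, 2, 1 and 0 times in the deficient libraries, against 294, 269, 338 and 341 times in the wildtype libraries. The deficient libraries stood at 0.0850, 0.0728, 0.0359 and 0 CPM, and the wildtype libraries at 11.5, 11.6, 12.6 and 13.5 CPM. The wildtype level alone brought Pcdh12 into the family, so its lower direction was set in advance and nothing is read from that direction. The pooled deficient level was 0.4% of the wildtype level, with a 95% counting interval of 0.13 to 0.935% that covers counting error only. The fit gave log2 -7.83 (SE 0.23, adjusted p = 7.76e-13 by edgeR). With 5 deficient fragments in all, that SE is narrower than the counting interval allows and overstates the precision. In the 16 libraries of the first experiment, whose labels name no sort, Pcdh12 lay between 0.0713 and 0.900 CPM, below each wildtype library. These levels come from separately normalised tables and were not tested against each other. Whether the wildtype cells of the second experiment are the stock used in the first is not given in the sources used here, so a loss in the deficient cells and a high level particular to that wildtype stock cannot be told apart.

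The genes on either side of Pcdh12 had no such difference in level. On its scaffold, in the order of the count tables, Rnf14 before it did not pass the test (log2 -0.03, adjusted p = 0.81 by edgeR), and Kiaa0141 after it stood at 30.8 ± 0.551 CPM in deficient and 32.3 ± 1.19 CPM in wildtype libraries (log2 -0.07, adjusted p = 0.317 by edgeR). Farther along the scaffold Arap3 was higher (log2 0.37, adjusted p = 1.38e-05 by edgeR). Beyond it Pcdhgc5, described below, was lower, and so was LOC100754141, at 5.47 ± 0.533 CPM in deficient and 15.2 ± 1.93 CPM in wildtype libraries (log2 -1.48, adjusted p = 1.9e-08 by edgeR). Endothelial markers summed to between 7.98 and 9.45 CPM in deficient and to between 12.0 and 14.4 CPM in wildtype libraries, and of the 9 Flt1 alone reached 1 CPM. Of the defining ones, Pecam1 stood at 0.176 CPM in deficient and 0.630 CPM in wildtype libraries, and Kdr at 0.0222 CPM in deficient and 0.00980 CPM in wildtype libraries. Their part in the Pcdh12 result was not tested.

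Among the other protocadherins, Pcdh7 had 39.0, 34.1, 30.2 and 31.4 CPM in deficient cells, against 65.8, 64.1, 58.8 and 59.5 CPM in wildtype cells. The level was 1.84-fold lower with the groups far apart (log2 -0.88, SE 0.07, adjusted p = 9.48e-08 by edgeR). Pcdhgc5 stood at 8.93, 9.65, 8.30 and 9.19 CPM in deficient cells, against 12.9, 11.9, 11.5 and 13.0 CPM in wildtype cells, also without overlap (log2 -0.45, SE 0.08, adjusted p = 0.000297 by edgeR). Pcdhgc3, of the same gamma cluster, stood at 26.0 ± 1.18 CPM in deficient and 26.1 ± 2.57 CPM in wildtype cells (log2 -0.01, SE 0.07, adjusted p = 0.942 by edgeR). Either entry may hold reads of exons shared by the cluster, so these levels need not be those of single isoforms. Pcdh18 fell to 54.3 ± 4.46 CPM, against 69.0 ± 2.72 CPM in wildtype cells (log2 -0.35, SE 0.06, adjusted p = 0.000209 by edgeR). Pcdh19, which works with N-cadherin in homophilic adhesion, was called lower (log2 -0.83, SE 0.26, adjusted p = 0.0187 by edgeR), but 1.23, 0.583, 0.503 and 0.533 CPM in deficient cells overlapped 1.25, 1.17, 1.23 and 1.35 CPM in wildtype cells, through deficient library 1. Without deficient library 3 or 4 that call was lost (highest adjusted p = 0.0695 by edgeR).

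Of the cadherins and catenins, Ctnna2 had 3.10, 2.44, 2.84 and 2.13 CPM in deficient cells, against 1.06, 1.04, 0.896 and 0.993 CPM in wildtype cells. The neuronal alpha-catenin was 2.64-fold higher, with every deficient library above every wildtype library (log2 1.40, SE 0.17, adjusted p = 9.12e-06 by edgeR). N-cadherin Cdh2 stood at 63.3, 64.1, 65.9 and 71.3 CPM in deficient cells, against 57.6, 54.4, 58.4 and 56.1 CPM in wildtype cells, a small rise without overlap (log2 0.22, SE 0.05, adjusted p = 0.00202 by edgeR). Ctnna1 rose to 189.0 ± 6.53 CPM, against 166.5 ± 6.13 CPM in wildtype cells (log2 0.18, SE 0.04, adjusted p = 0.00377 by edgeR), whereas Ctnnd1 fell to 241.2 ± 7.30 CPM, against 268.7 ± 7.72 CPM in wildtype cells (log2 -0.16, SE 0.04, adjusted p = 0.00742 by edgeR). Ctnnb1, at 700.8 ± 23.9 CPM in deficient and 714.8 ± 13.3 CPM in wildtype cells, did not pass the test (log2 -0.03, SE 0.04, adjusted p = 0.612 by edgeR). E-cadherin Cdh1 fell to 1.57 ± 0.253 CPM, against 2.48 ± 0.515 CPM in wildtype cells (log2 -0.65, SE 0.18, adjusted p = 0.00974 by edgeR). Cdh17, known from liver and intestine, stood at 0.227 ± 0.139 CPM in deficient and 0.563 ± 0.132 CPM in wildtype cells. It had 22 fragments in deficient and 57 in wildtype cells (log2 -1.36, SE 0.41, adjusted p = 0.0144 by edgeR). Its wildtype level alone brought Cdh17 into the family, so this direction was set in advance and nothing is read from it. The summed epithelial markers overlapped here, at 1.64 to 2.04 CPM in deficient and 1.27 to 2.27 CPM in wildtype libraries, with Epcam lower (log2 -1.92, adjusted p = 0.00169 by edgeR) and Krt5 higher (log2 0.69, adjusted p = 0.0424 by edgeR).

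All but 1 of the giant and planar polarity cadherins fell as well. Celsr3 had 0.383, 0.437, 0.287 and 0.488 CPM in deficient cells, against 1.22, 1.08, 0.747 and 1.23 CPM in wildtype cells. It was 2.67-fold lower without overlap (log2 -1.42, SE 0.26, adjusted p = 0.000418 by edgeR). Fat1 stood at 725.2, 532.6, 738.6 and 771.3 CPM in deficient cells, against 834.0, 880.4, 820.5 and 857.0 CPM in wildtype cells. Its groups were apart, with deficient library 2 lowest (log2 -0.29, SE 0.08, adjusted p = 0.0114 by edgeR). Fat4 fell to 2.34 ± 0.340 CPM, against 3.26 ± 0.293 CPM in wildtype cells (log2 -0.48, SE 0.14, adjusted p = 0.012 by edgeR). Its partner Dchs1 stood at 1.19 ± 0.081 CPM in deficient and 0.931 ± 0.124 CPM in wildtype libraries, apart but not past the test (log2 0.34, SE 0.19, adjusted p = 0.155 by edgeR). Celsr2 was called lower, at 0.406 ± 0.138 CPM in deficient and 0.710 ± 0.0956 CPM in wildtype cells (log2 -0.83, SE 0.28, adjusted p = 0.0276 by edgeR). That call was lost in 5 of 13 alternatives (adjusted p up to 0.104 by edgeR or DESeq2). Among them were those without wildtype library 1 or 2 or deficient library 2 or 3. The catenin-related Ctnnal1, Ctnnbl1 and Ctnnbip1 did not pass (lowest adjusted p = 0.0933 by edgeR), and neither did Cdh9, at 3.04 ± 0.446 CPM in deficient and 3.62 ± 0.200 CPM in wildtype cells (log2 -0.25, adjusted p = 0.141 by edgeR) or Cdh24 (log2 -0.31, adjusted p = 0.111 by edgeR). Cdh13 had 22 fragments in deficient and 24 in wildtype libraries and was not tested.

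**Figure D4:**
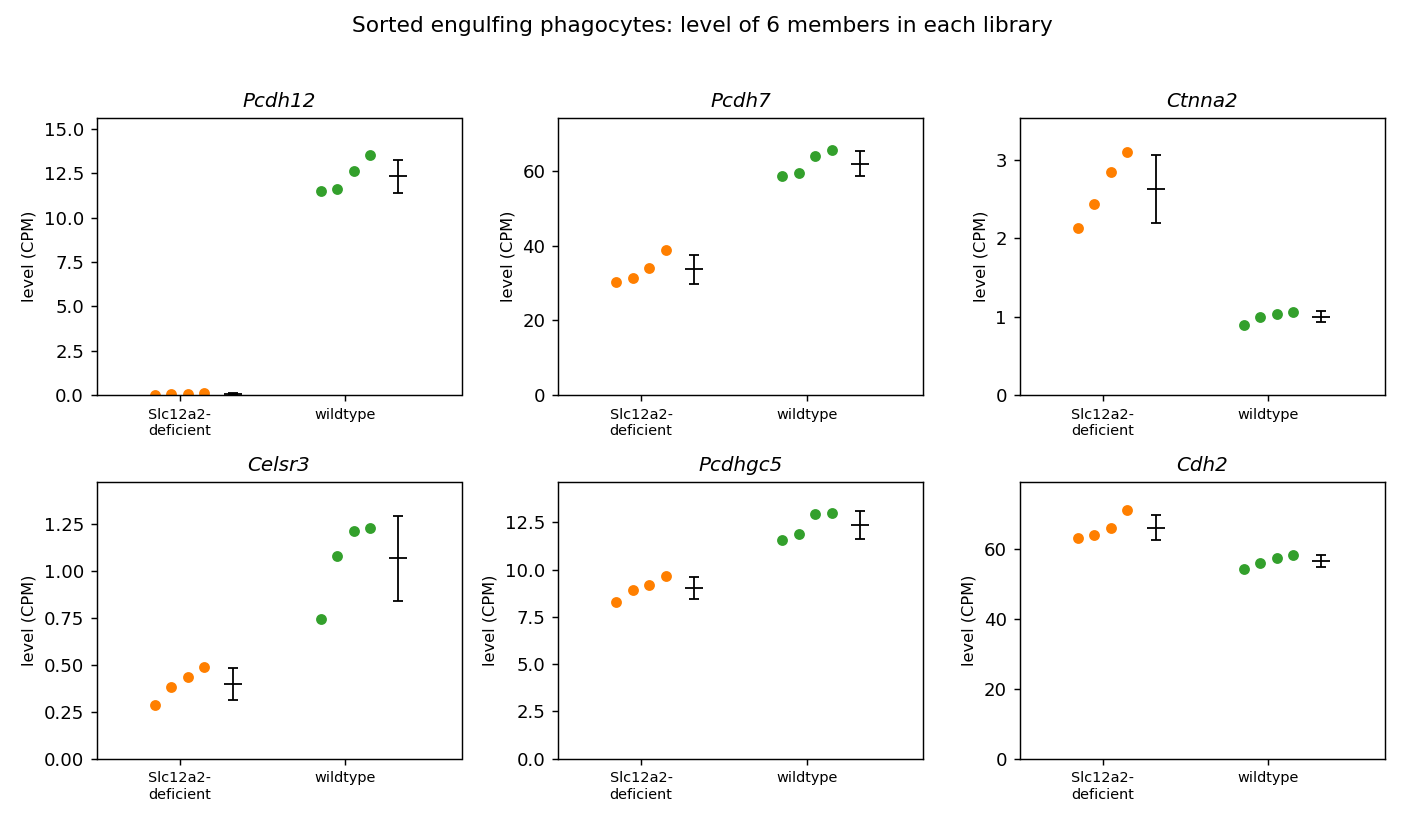
Level in CPM of 6 members in each of the 8 sorted libraries (points, drawn from low to high within a group), with the group mean and SD beside them (line and whiskers, n = 4). Slc12a2-deficient libraries lie below wildtype libraries for Pcdh12, Pcdh7, Celsr3 and Pcdhgc5 and above them for Ctnna2 and Cdh2, with no overlap in any of the 6 panels. All 6 were drawn from the members called, so their lack of overlap is no separate result. Pcdh19, called but not drawn, overlapped.

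Partner genes moved in both directions with genotype, as did 42.5% of all genes (21.1% higher and 21.3% lower), and each count in this and the next paragraph stands beside those shares. Of 18 junction partners 3 rose and 5 fell, a share near that of all genes, with the desmosomal linker Dsp at 32.8 ± 3.78 CPM in deficient and 57.2 ± 2.01 CPM in wildtype libraries (log2 -0.81, adjusted p = 2e-07 by edgeR) and Shroom3, which narrows the apex of epithelial cells, at 18.9 ± 4.32 CPM in deficient and 48.1 ± 7.13 CPM in wildtype libraries (log2 -1.34, adjusted p = 9.02e-07 by edgeR). Of 12 cleavage and maturation genes 2 rose and 7 fell, including Mmp14 (log2 -0.53, adjusted p = 2.58e-07 by edgeR) and the convertase Furin (log2 -0.55, adjusted p = 5.06e-07 by edgeR). Of 9 repressors of cadherin genes 1 rose, Prrx1, and 3 fell, Klf8, Zeb2 and Tcf4.

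In the beta-catenin degradation complex 4 of 13 genes rose and 4 fell, where 21.1% of all genes rose and 21.3% fell, and the ubiquitin ligase subunit Btrc stood at 43.6 ± 3.02 CPM in deficient and 16.99 ± 0.506 CPM in wildtype libraries (log2 1.36, adjusted p = 1.42e-10 by edgeR). Of 8 Wnt targets 4 rose and 3 fell. The feedback inhibitors Axin2 (log2 -1.16, adjusted p = 1.2e-06 by edgeR) and Rnf43 (log2 -2.39, adjusted p = 1.95e-06 by edgeR) were lower, and Ccnd1 (log2 0.44, adjusted p = 0.000186 by edgeR) and Tcf7l2 (log2 0.57, adjusted p = 7.93e-06 by edgeR) higher. Of 13 planar polarity genes 2 rose and 5 fell, with the receptor Fzd3 higher (log2 0.54, adjusted p = 2.52e-05 by edgeR). Fibroblast markers moved too: 1 of 8 rose and 7 fell, with Fn1 at 653.5 ± 100.7 CPM in deficient and 1247 ± 49.7 CPM in wildtype libraries and Postn at 30.4 ± 1.94 CPM in deficient and 563.9 ± 53.0 CPM in wildtype libraries. Whether these 8 genes and the members moved for a common reason was not tested.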

How the data were processed

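Both deposited tables hold raw counts. Per the file headers, the authors ran featureCounts 1.5.0 on exons, grouped by gene name, keeping fragments whose ends both aligned and setting no strand. The submitters' processing notes also list STAR, FastQC and DESeq2, with no version, and the genome build is not given in the sources used here. Gene length is the deposited sum of exon bases, per the file headers. A row with a blank name, 0.0249 to 0.0445% of counts in the first and 1.13 to 1.65% in the second experiment, was left out. Wnk1 was not analysed here.

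Each experiment was fitted alone with edgeR 4.0.16 in R 4.3.3 (TMM factors, filterByExpr with minimum count 10 and minimum total 15, quasi-likelihood F test on group), over all 16 or all 8 libraries. Adjusted p-values are Benjamini-Hochberg over all genes tested, and called means under 0.05. Groups described as apart are given without the share of all genes whose groups were apart, so this adds no support to a call. Of the members, 22 and 23 passed the filter. Biological coefficients of variation were 7.04% and 6.06%. Levels are CPM with TMM-scaled library sizes, and means carry the SD over 4 libraries. The SE of a log2 fold change is its absolute value divided by the square root of the F statistic. It is approximate, and poor for extreme changes. Alternatives were DESeq2 1.42.0, relative log expression factors, no filter, 1 CPM in 4 libraries, only the 8 libraries compared, a replicate block, removal of the trend with length and each library left out, and, chosen after seeing the data, removal of 3 libraries and a term for library numbers. The fit was also run on counts simulated from its own model, with 200 changed genes. Such a run cannot show that the model suits these data, and its outcome is not given here.

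The members, the lists and the tests were chosen with earlier results of these data known. Members called (up to 10 per direction) and Cdh2, Ctnnb1, Ctnna1, Ctnnd1, Fat1 and Pcdh12 are named with tests, with up to 4 called genes per list and direction, of which the text gives a part. The values of Fat4, Ctnna2, Cdh9, Cdh24, Dchs1 and some other uncalled members were added after they were seen. Labels call the libraries biological replicates.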

Additional observations from a re-analysis of the deposited data

Results flagged for a closer look

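In 144 sets of 4 libraries (24 members in 6 groups), 10 held a library far from the other 3, where chance alone flags about 1 set in 20. In Slc12a2-deficient library 1, Pcdh19 stood at 1.23 CPM, against 0.503 to 0.583 CPM in the others of its group. In wildtype library 3, Ctnna1 stood at 157 CPM, against 169 to 170 CPM. In deficient library 4, Ctnnbip1 stood at 7.59 CPM, against 6.55 to 6.72 CPM. In the first experiment Ctnnal1 stood at 47.2 CPM in control library 4, against 34.9 to 36.8 CPM, Cdh9 at 2.92 CPM in control library 3, against 1.53 to 1.70 CPM, and Fat4 at 4.24 CPM in control library 2, against 1.89 to 2.23 CPM. With corpses and cytochalasin D, Cdh1 stood at 0.922 CPM in library 1, against 1.59 to 1.63 CPM, and Pcdh12 at 0.123 CPM in library 2, against 0.491 to 0.543 CPM. With corpses alone, Cdh24 stood at 5.91 CPM in library 4, against 5.13 to 5.17 CPM, and Fat1 at 403 CPM in library 1, against 419 to 422 CPM.

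By an interaction term, the effect of corpses was called different with and without cytochalasin D for Pcdh7 (log2 difference -0.40, adjusted p = 0.0365 by edgeR) and for Pcdhgc3 (log2 difference -0.38, adjusted p = 0.0479 by edgeR). Over 23 alternatives, by edgeR or DESeq2, the adjusted p ran from 0.0121 to 0.129 for Pcdh7 and from 0.00631 to 0.117 for Pcdhgc3. The call was lost in 10 of the 23 alternatives for Pcdh7 and in 17 for Pcdhgc3. Both were lost without the 3 libraries that stood apart.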

How the results depend on the processing

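The call held under every alternative that tested the member for 13 of 15 called with genotype and 6 of 8 with cytochalasin D. It held so for 6 of 10 with cytochalasin D added to corpses and 2 of 6 with corpses. In the remaining comparisons it held for none of 1 and none of 2. Cdh17 and Celsr3, among the 13, were not tested with the filter of 1 CPM in 4 libraries. That filter gave 12 members for genotype, where 44.3% of all genes were called. The 13 with genotype include Pcdh12 and Cdh17, whose direction was set by the minimum on CPM. With each library left out, members called ranged from 14 to 16 for genotype, 6 to 8 for cytochalasin D, 7 to 9 for cytochalasin D added to corpses, 3 to 5 for corpses, 0 to 1 for corpses under cytochalasin D and 0 to 2 for the difference. In those fits 36.3 to 43.2% of all genes were called for genotype and 21.6 to 27.1% for cytochalasin D. The shares were 26.2 to 31.1% for cytochalasin D added to corpses and 8.33 to 12.8% for corpses. They were 5.70 to 12.4% for corpses under cytochalasin D and 1.89 to 12.4% for the difference. Removing the length trend gave 3 members for corpses, where 13.1% of all genes were called. Leaving out the 3 libraries that stood apart gave 3 for corpses, 0 for corpses under cytochalasin D and 0 for the difference. There 12.2%, 5.01% and 0.907% of all genes were called, in that order. Without the filter 2 were called for corpses under cytochalasin D, where 5.82% of all genes were called. Relative log expression factors gave 1 for the difference, where 4.65% of all genes were called. The cause of these shifts was not tested.

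Same-numbered libraries of the first experiment did not deviate together (24 pairs, correlations of deviations -0.0555 to 0.227, median 0.00478, and 7 of 16 libraries best with their own number). With a replicate block 6 members were called for corpses, 8 for cytochalasin D, 9 for cytochalasin D added to corpses, 0 for corpses under cytochalasin D and 2 for the difference. In that order, 14.2%, 26.0%, 32.6%, 8.52% and 5.75% of all genes were called. No paired analysis was possible for the second experiment because its library numbers are not shared between genotypes. A term for library numbers 9 to 12 against 13 to 16 gave 16 members for genotype, where 47.7% of all genes were called.

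Directions reversed for uncalled values. The log2 fold change of Fat1 with corpses became 0.1213 without the length trend and 0.03404 without the 3 libraries, and ran from -0.1019 to 0.03703 with single libraries left out. Fat1 with corpses under cytochalasin D became -0.003216 without the filter and -0.04747 without the 3 libraries, and ran from -0.04404 to 0.07372. The difference became -0.09383 without the length trend and -0.08151 without the 3 libraries for Fat1, which ran from -0.0362 to 0.1026, and -0.003183 and -0.0004129 for Ctnnb1. Ctnnb1 with genotype ran from -0.0406 to 0.00482. Depth limits members under about 1 CPM, where 1 fragment is worth 0.0352 to 0.121 CPM.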

Other observations

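Among the 43 matching names under the minimum, Pcdh9 had 9 fragments with corpses and cytochalasin D, 5 with corpses and none with cytochalasin D alone, in control or in the second experiment, and Cdhr1 had 8, 3, 0 and 0 fragments in those 4 groups of the first experiment. T lymphocyte transcripts were present in the 2 groups with corpses, and whether these fragments came from Jurkat RNA was not tested.

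In the second experiment 2 further protocadherins under the minimum had fewer fragments in Slc12a2-deficient than in wildtype libraries, Pcdhb3 with 1 in deficient and 29 in wildtype libraries, and Pcdhgc4 with 14 in deficient and 49 in wildtype libraries. Pcdhb3 had 16 fragments with cytochalasin D and 2 in control. VE-cadherin, Cdh5, the classical cadherin of endothelium, had 8 fragments in deficient and 13 in wildtype libraries. Other protocadherins under the minimum did not share that direction or differed little: Pcdh15 had 15 fragments in deficient and 8 in wildtype libraries, Pcdhgb4 3 in deficient and 5 in wildtype, and Pcdhga1 9 in deficient and 10 in wildtype. These genes were chosen after their counts were seen and were not tested.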
